A study of Chlorocebus aethiops with 8 samples.

Results

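The EGR and serum-response immediate-early genes examined here were 9 genes: the zinc-finger transcription factors EGR1, EGR2 and EGR3, the early response genes IER2 and IER3, the serum response factor gene SRF, the Krüppel-like factor KLF6, the MAP kinase phosphatase DUSP1 and PHLDA1. It was chosen by one measured value, the lower EGR2 signal under RHA siRNA in both RNA fractions, and the other genes were added for their kind. Members were all probe sets annotated with exactly 1 of these symbols. That gave 16 of the 52865 probe sets on the array, for 5 of the 9 genes: EGR2 had 2, IER2 1, KLF6 6, DUSP1 2 and PHLDA1 5. EGR1, EGR3, IER3 and SRF were not analysed here. Of the 16 probe sets, 13 were bright enough to be tested, and 3 (2 of KLF6 and 1 of DUSP1) were not.

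Immediate-early genes are switched on within a short time of serum or growth factor addition, before any new protein is made, largely through ERK signalling to serum response factor and its cofactors. Their mRNAs are short-lived, and many of the proteins are transcription factors or feedback regulators of the same pathway. RNA helicase A (RHA, the product of DHX9) unwinds structured RNA and is known to help the translation of selected mRNAs, among them that of the AP-1 factor JUND.

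RNA came from COS cells, an African green monkey kidney line that carries the SV40 large T antigen, and was read on rhesus macaque arrays. Cells had received siRNA against RHA, aimed at 2 stretches of the human RHA coding region (bases 2701 to 2721 and bases 2784 to 2803), or scrambled siRNA as the control, each at 0.5 nM. Both arms went through the same 2 rounds of transfection, with 4 h without serum and then 24 h in 10% serum in the first, and the labels describe no serum stimulation shortly before harvest. The 4 groups of 2 arrays were cytoplasmic RNA under RHA siRNA, cytoplasmic RNA under control siRNA, polysomal RNA under RHA siRNA and polysomal RNA under control siRNA. The titles number the arrays of each group 1 and 2, and the 4 arrays of one number are called set 1 and set 2. In RNA from whole cultures, fewer cells with a transcript and less of it per cell cannot be told apart.

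DHX9 itself, on the brightest of its 4 probe sets (the other 3 were too dim to be tested), had intensities of 130 and 254 in cytoplasm and of 97.2 and 269 in polysomes under RHA siRNA (sets 1 and 2), against 244 and 342 in cytoplasm and 359 and 477 in polysomes under control siRNA. On this probe set it was lower under RHA siRNA within each set and fraction. The sets differed widely: 13535 of 26383 tested probe sets (51.3%) differed between set 2 and set 1 in limma. The cytoplasmic control array of set 1 correlated least with its set (median r 0.949 with the other arrays of the set, against 0.967 or more for each other array). The 3' minus 5' signal of the actin, EF1A and GAPDH control probe sets, a measure of RNA integrity, moved with RHA siRNA by -1.07 and -0.27 (log2, sets 1 and 2) in cytoplasm and by 1.17 and -0.35 in polysomes. Its part in the results below was not tested. Of the cell type markers, VIM of mesenchymal cells was the brightest (mean log2 12.26). The other tested mesenchymal markers were dimmer: FN1 9.35, COL1A1 5.96, COL3A1 5.07 and THY1 4.90. The brightest kidney tubule marker, EPCAM, had 8.40. Of 8 mesenchymal, 8 kidney tubule and 7 leukocyte markers listed, 7, 8 and 5 had a probe set. Of these, 5, 5 and 3 were bright enough to be tested. The summed kidney marker intensity was 475 to 686 under RHA siRNA and 587 to 712 under control siRNA, and the summed leukocyte marker intensity was 197 to 318 and 184 to 375. The summed mesenchymal marker intensity was 4852 to 7366 under RHA siRNA and 4966 to 7125 under control siRNA.

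EGR2, a transcription factor best known from hindbrain patterning and from myelinating Schwann cells, was read by probe set MmunewRS.383.1.S1_at. In cytoplasmic RNA its intensity was 35.9 and 37.7 under RHA siRNA (sets 1 and 2), against 83.2 and 137 under control siRNA. In polysomal RNA it was 47.8 and 50.8 under RHA siRNA, against 110 and 193 under control siRNA. All 4 RHA siRNA arrays thus lay below all 4 control arrays, as they did for 1.38% of tested probe sets. This is the value that chose the group, so it is given as a description with no test.

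EGR2 was at 34.4% of control in cytoplasm (log2 -1.54, SE 0.42; -1.21 and -1.86 in sets 1 and 2) and at 33.8% of control in polysomes (log2 -1.56, SE 0.42; -1.20 and -1.93). Ordered by log2 fold change, it was the lowest of 26383 tested probe sets in polysomal RNA and number 36 from the bottom in cytoplasmic RNA. Its mean log2 intensity was 5.20 ± 0.05 in cytoplasm and 5.62 ± 0.06 in polysomes under RHA siRNA, and 6.74 ± 0.51 in cytoplasm and 7.19 ± 0.58 in polysomes under control siRNA (SD, n = 2 each). From low to high the order was cytoplasmic RHA siRNA, polysomal RHA siRNA, cytoplasmic control and polysomal control. The 2 control groups overlapped, and the other neighbours in that order did not. The sets were close to each other under RHA siRNA and further apart under control siRNA.

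The second EGR2 probe set, MmuSTS.4113.1.S1_at, ran the other way. Its intensity was 39.1 and 42.7 in cytoplasm and 45.6 and 45.7 in polysomes under RHA siRNA, against 34.8 and 38.7 in cytoplasm and 32.4 and 29.3 in polysomes under control siRNA. All 4 RHA siRNA arrays lay above all 4 control arrays, as they did for 1.43% of tested probe sets. Its log2 fold change was 0.16 (SE 0.29) in cytoplasm and 0.57 (SE 0.29) in polysomes, above 0 in each of the 4 comparisons within a set. Its mean log2 intensity was 5.25, against a limit for testing of 4.32 (intensity 19.9). The mean of both EGR2 probe sets gave log2 -0.69 in cytoplasm and -0.50 in polysomes. The lower EGR2 signal thus rests on 1 of 2 probe sets.

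**Figure D1:**
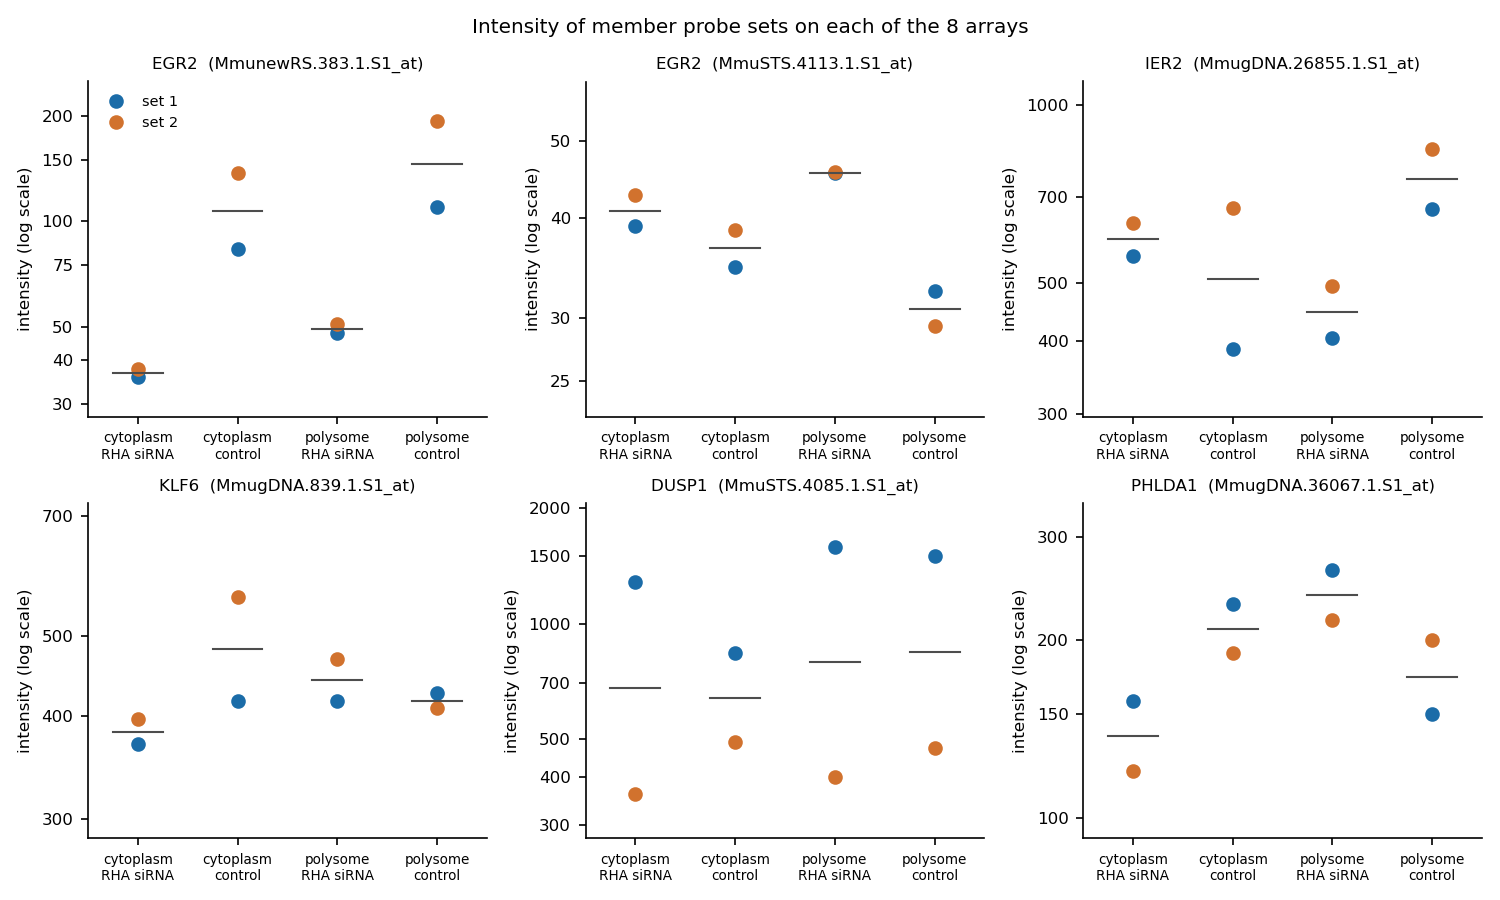
Intensity (log axis) of both EGR2 probe sets and of the brightest probe set of IER2, KLF6, DUSP1 and PHLDA1 in the 4 groups; points are arrays, coloured by set, and bars are the mean of the log2 values of 2 arrays. EGR2 was 35.9 to 50.8 under RHA siRNA and 83.2 to 193 under control siRNA on the first probe set, and 39.1 to 45.7 against 29.3 to 38.7 on the second.

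On the first EGR2 probe set the polysomal signal was above the cytoplasmic signal under both siRNAs. Its log2 ratio of polysomal over cytoplasmic RNA was 0.42 under RHA siRNA (0.42 and 0.43 in sets 1 and 2) and 0.45 under control siRNA (0.40 and 0.49). Both polysomal arrays lay above both cytoplasmic arrays under RHA siRNA, as for 10.1% of tested probe sets. The difference between those ratios, the change in loading, was -0.02 (SE 0.59; 0.01 and -0.06 in the sets). That SE is far larger than the difference itself, and EGR2 has no test here. On the second EGR2 probe set the ratio was 0.16 under RHA siRNA and -0.25 under control siRNA, and the change in loading was 0.41 (SE 0.41; 0.33 and 0.50 in the sets).

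Likeness over the 8 arrays, after the mean of each set was subtracted, was taken to the first EGR2 probe set alone. The second EGR2 probe set had r = -0.83 with the first. The 5 genes most like the first were SSB (the La protein, an RNA chaperone), SEC22C, PLEKHM2, ATG4C (an autophagy protease) and GKAP1. Pearson's r over the 8 arrays, which share 2 sets and 2 fractions, was 0.987 for SSB, 0.982 for SEC22C, 0.981 for PLEKHM2, 0.981 for ATG4C and 0.979 for GKAP1. They were picked by this r from all tested genes, so high values were bound to be found. The first EGR2 probe set was chosen for its fall, so lower values of these genes under RHA siRNA were bound to be found too. Their log2 fold changes over both fractions were smaller than the -1.55 of the first EGR2 probe set, between -0.91 for ATG4C and -0.34 for SSB. SEC22C, for example, had 60.7 and 84.0 in cytoplasm and 79.6 and 101 in polysomes under RHA siRNA, against 91.7 and 166 in cytoplasm and 133 and 216 in polysomes under control siRNA.

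**Figure D2:**
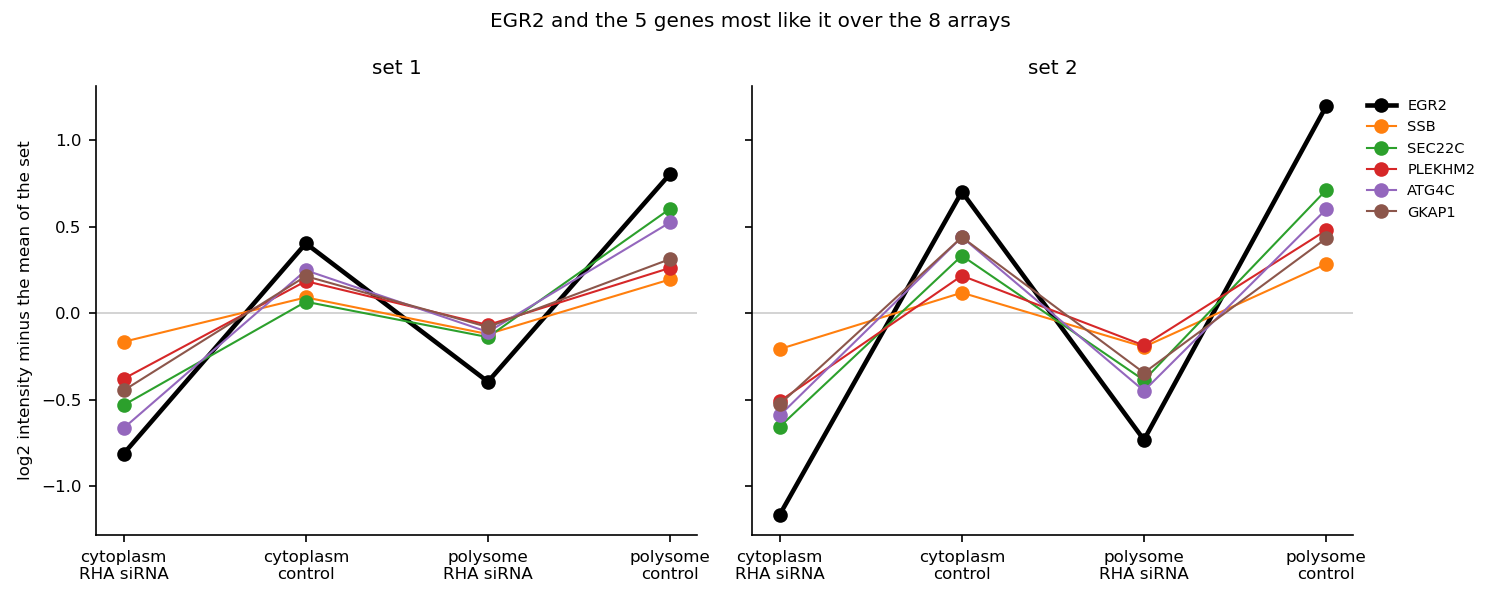
Log2 intensity minus the mean of the set in the 4 groups of set 1 (left) and set 2 (right). Shown are the first EGR2 probe set (black) and the 5 genes most like it. Each point is 1 array, and lines only join the points of a gene. Every gene was lower under RHA siRNA in both fractions, which follows from the choice by likeness to a probe set picked for its fall. The first EGR2 probe set had the widest span.

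IER2, a nuclear protein induced by growth factors, differed between the fractions. In polysomal RNA its probe set had intensities of 405 and 494 under RHA siRNA, against 667 and 844 under control siRNA, without overlap. Both RHA siRNA arrays lay below both control arrays for 7.79% of tested probe sets. In cytoplasmic RNA IER2 had 557 and 632 under RHA siRNA, against 386 and 671 under control siRNA, where the groups overlapped.

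The log2 fold change of IER2 was -0.75 in polysomes (SE 0.38; -0.72 and -0.77 in sets 1 and 2) and 0.22 in cytoplasm (SE 0.38; 0.53 and -0.09). When set 1's control array in cytoplasm was left out, the cytoplasmic value was -0.18. The change in loading was -0.97 (SE 0.54; -1.25 and -0.69), which did not pass the test (limma adjusted p = 1.00). It was below 0 in both sets, as for 24% of tested probe sets, and lay between -1.37 and -0.57 when any 1 array was left out. Under RHA siRNA the log2 ratio of polysomal over cytoplasmic IER2 was -0.41, with both polysomal arrays below both cytoplasmic arrays (7.42% of tested probe sets), and under control siRNA it was 0.56. Among the brightest probe sets of the 5 genes, IER2 had the lowest ratio under RHA siRNA and the highest under control siRNA.

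**Figure D3:**
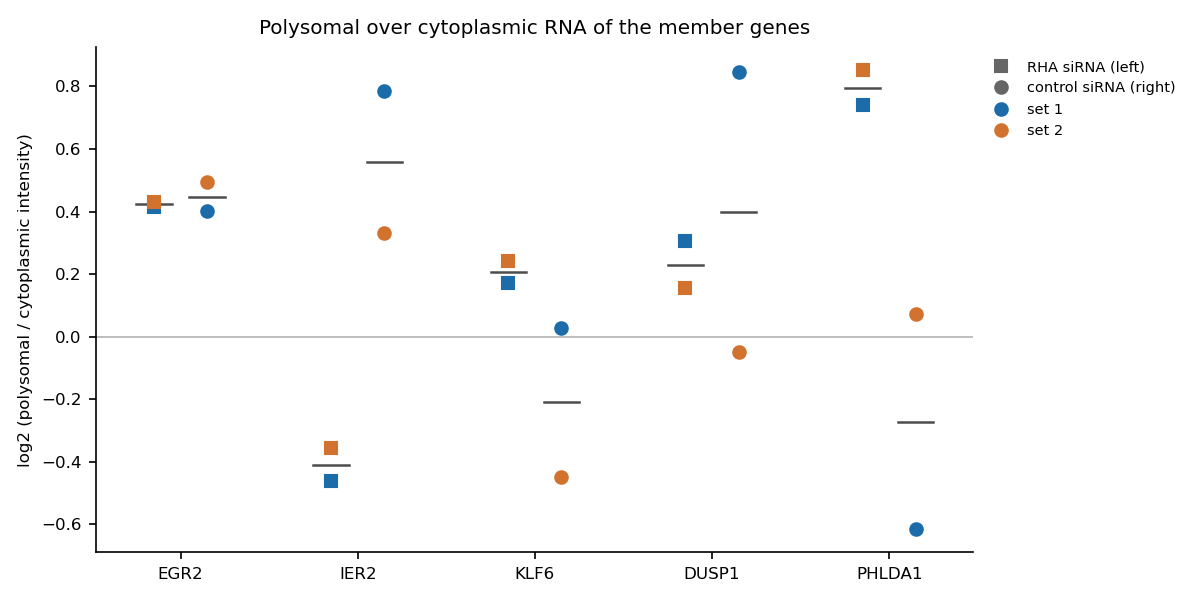
Log2 ratio of polysomal over cytoplasmic intensity (vertical axis) for the brightest probe set of each gene, under RHA siRNA (squares, left) and control siRNA (circles, right); points are the sets and bars the mean. The ratio of IER2 was -0.41 under RHA siRNA and 0.56 under control siRNA, that of PHLDA1 was 0.80 and -0.27, and that of EGR2 was 0.42 and 0.45.

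PHLDA1, a pleckstrin homology-like domain protein of the early growth factor response, showed the opposite pattern on its brightest probe set, MmugDNA.36067.1.S1_at. In polysomal RNA it had 263 and 217 under RHA siRNA, against 150 and 200 under control siRNA, and the groups did not overlap (7.91% of tested probe sets lay higher without overlap). In cytoplasmic RNA it had 158 and 120 under RHA siRNA, against 230 and 190 under control siRNA, again without overlap (8.9% lay lower in that way).

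The change in loading of PHLDA1 on this probe set was 1.07 (SE 0.48; 1.36 and 0.78 in sets 1 and 2; limma adjusted p = 1.00). A loading change above 0 in both sets was found in 26.1% of tested probe sets, and values below 0 in cytoplasm with values above 0 in polysomes, in both sets, in 4.15%. Its log2 ratio of polysomal over cytoplasmic RNA was 0.80 under RHA siRNA (SE 0.34) and -0.27 under control siRNA (SE 0.34). The other 4 probe sets did not share the cytoplasmic direction in their means over the sets. Their log2 fold changes were 0.09 to 0.46 in cytoplasm, and their loading changes lay between -0.19 and 0.15. In set 2 the cytoplasmic value was -0.27 for MmugDNA.10130.1.S1_at and -0.10 for MmugDNA.10128.1.S1_at. It was 0.07 for MmugDNA.10127.1.S1_at and 0.52 for MmugDNA.34989.1.S1_at. In polysomes all 5 PHLDA1 probe sets had values above 0 in both sets, with means over the sets of 0.08 to 0.51 and a lowest value of 0.0093 in set 2 of MmugDNA.34989.1.S1_at. Of all tested genes, 27.3% were above 0 in polysomes in both sets. These 5 probe sets read 1 gene and are not replicates of each other.

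KLF6, a zinc-finger transcription factor of the Krüppel-like family, was read by 6 probe sets, the brightest being MmugDNA.839.1.S1_at. Its intensity was 370 and 397 in cytoplasm and 417 and 469 in polysomes under RHA siRNA, against 418 and 558 in cytoplasm and 426 and 410 in polysomes under control siRNA. The cytoplasmic groups did not overlap and the polysomal groups did. The log2 fold change was -0.34 in cytoplasm (SE 0.31; -0.18 and -0.49 in sets 1 and 2) and 0.08 in polysomes (SE 0.31; -0.03 and 0.20), and neither passed the test (limma adjusted p = 1.00).

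The other KLF6 probe sets differed from each other. MmugDNA.26405.1.S1_s_at had a log2 fold change of -0.36 in cytoplasm and 0.26 in polysomes, below 0 and above 0 in both sets. MmugDNA.26405.1.S1_at had 132 and 188 in cytoplasm and 48.6 and 286 in polysomes under RHA siRNA, against 17.6 and 270 in cytoplasm and 68.3 and 247 in polysomes under control siRNA. Its cytoplasmic effect was 2.91 in set 1 and -0.52 in set 2, and the 17.6 was on the array that correlated least with its set. MmuSTS.3692.1.S1_at also differed in sign between the sets, at 1.21 and -0.31. The 2 dim probe sets, which were not tested, had cytoplasmic values of -0.50 (MmugDNA.26598.1.S1_at) and 0.05 (MmugDNA.10762.1.S1_at). The mean of all 6 KLF6 probe sets gave 0.08 in cytoplasm, so the sign there depends on the probe set.

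DUSP1, which switches off ERK, p38 and JNK kinases by removing their activating phosphates, differed mainly between the sets. Its brightest probe set had 1281 and 360 in cytoplasm and 1584 and 400 in polysomes under RHA siRNA, against 837 and 492 in cytoplasm and 1503 and 476 in polysomes under control siRNA. Every array of set 2 lay below every array of set 1. The difference of set 2 from set 1 was -1.56 (log2, SE 0.23; limma adjusted p = 0.00102, with the 4 groups as terms). Set 1 gave a cytoplasmic log2 fold change of 0.61 and set 2 one of -0.45, with a mean of 0.08 (SE 0.95). The polysomal mean was -0.09 (SE 0.95), from 0.08 in set 1 and -0.25 in set 2. Neither passed the test (limma adjusted p = 1.00).

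Set 2 also differed from set 1 in 4 other tested member probe sets. KLF6 was higher in set 2 on MmugDNA.26405.1.S1_s_at (log2 1.00, adjusted p = 0.00155 in limma) and MmugDNA.26405.1.S1_at (2.22, 0.00534). PHLDA1 was lower in set 2 on MmugDNA.10127.1.S1_at (-0.85, 0.00868) and higher on MmugDNA.10128.1.S1_at (0.76, 0.00969). The count of 5 of 13 stands against the 51.3% of all tested probe sets.

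Limma called 0 of the 11 tested probe sets of IER2, KLF6, DUSP1 and PHLDA1 at an adjusted p under 0.05 in any of the 6 contrasts, and 0% of the 26383 probe sets. For EGR2 only the polysome over cytoplasm comparisons were tested, and neither of its probe sets was called there. The spread in that fit includes the difference between the sets, so its lack of calls does not show a lack of effect. At an unadjusted p under 0.05 there were 426 probe sets for the siRNA effect in cytoplasm, 137 in polysomes, 540 over both fractions and 46 for the change in loading. None of these 11 was among them. For polysomal against cytoplasmic RNA there were 70 under RHA siRNA and 55 under control siRNA, and no member probe set.

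The choice of EGR2 fixed its sign over both fractions. On their brightest probe sets the 4 other genes lay below 0, as did 46.2% of all 10106 tested genes. Their values were small: -0.26 for IER2, -0.13 for KLF6, -0.07 for PHLDA1 and -0.003 for DUSP1. This sign depends on the probe set: of all 13 tested member probe sets, 6 lay below 0 and 7 above. Their median was 0.16, against 0.03 for all tested probe sets, of which 45.1% lay below 0. Averaging the probe sets of a gene turned the sign for KLF6, PHLDA1 and DUSP1, as given below.

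**Figure D4:**
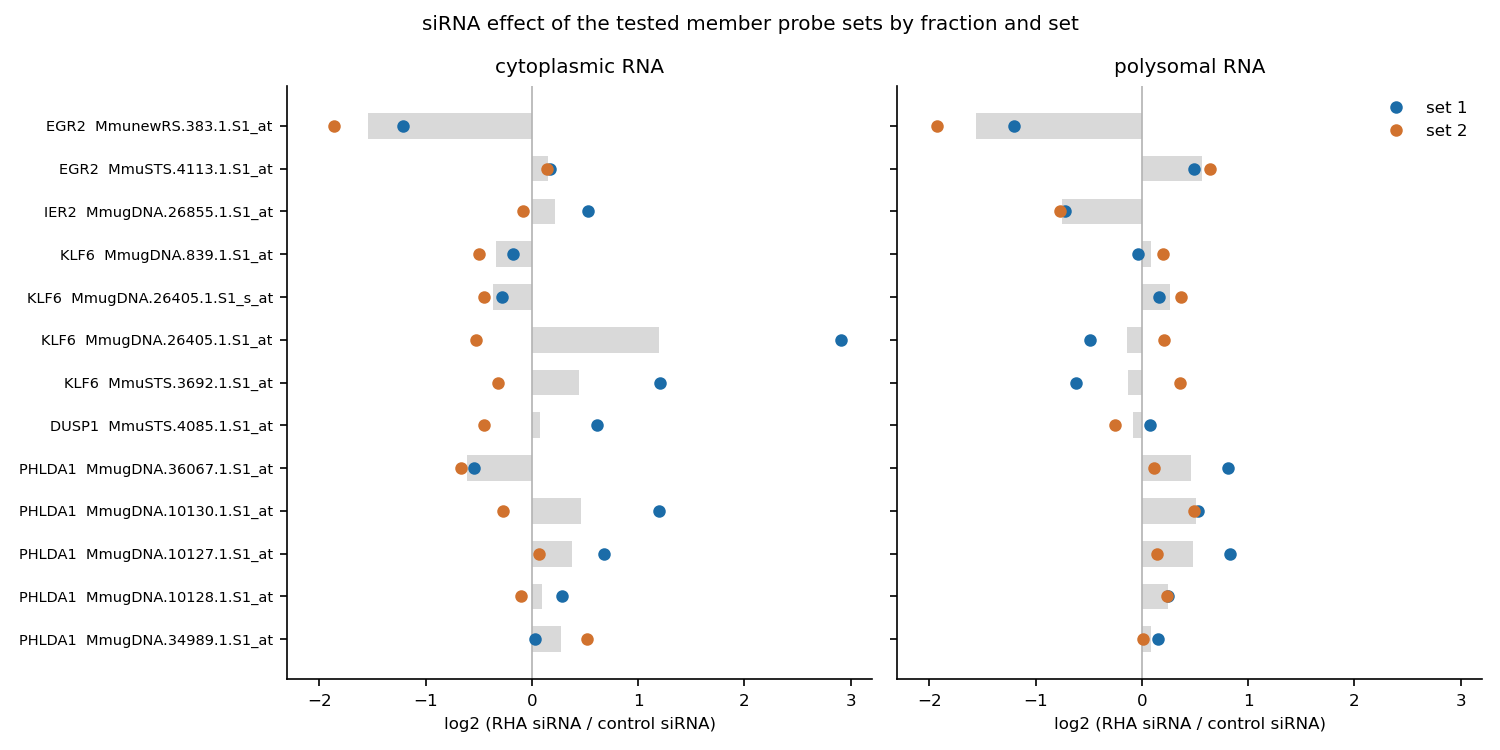
Log2 fold change under RHA siRNA (horizontal axis) of the 13 tested member probe sets in cytoplasmic (left) and polysomal (right) RNA; grey bars are the mean and points the sets. The first EGR2 probe set lies below -1.2 or at that value in both sets and fractions, the second lies above 0, and IER2 lies at -0.72 and -0.77 in polysomes.

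The other immediate-early genes lay on both sides of 0. Of 27 listed genes, 22 had a probe set and 20 were tested. Over both fractions 13 lay below 0 and 7 above, with a median of -0.06 against 0.03 for all tested genes (46.2% of them below 0), and limma called 0 in either direction. The lowest were the AP-1 factor FOS (log2 -0.64; -0.35 and -0.92 in sets 1 and 2) and the small GTP-binding protein GEM (-0.54; -0.77 and -0.31). The highest were the anti-apoptotic BCL2 relative MCL1 (0.56; 0.82 and 0.30) and MYC (0.36; 1.03 and -0.31).

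FOS, JUNB and JUND, the last 2 named after their values were seen, had lower polysomal values, as IER2 did. Their polysomal log2 fold changes were -0.96, -0.66 and -0.82 (SE 0.68, 0.95 and 0.38), against -0.31, 0.03 and -0.19 in cytoplasm. JUNB had polysomal intensities of 202 and 70.0 under RHA siRNA, against 365 and 96.9 under control siRNA, so its groups overlapped. FOS and JUND were dim, with a mean log2 intensity of 5.40 each, against a limit for testing of 4.32. The change in loading was below 0 in both sets for each: -0.48 and -0.83 for FOS, -0.86 and -0.52 for JUNB, and -0.70 and -0.56 for JUND. In the whole list, however, 9 of 20 genes lay below 0 in polysomes and 11 above, with 50.3% of all tested genes below 0. The polysomal median of the list was 0.05, against -0.001 for all tested genes. A loading change below 0 in both sets was found in 5 of the 20 genes and one above 0 in 5, against 28.2% and 26.9% of all tested genes.

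Partners of serum response factor and of the EGR proteins included few measured genes. Of 7 listed genes 4 were tested, and 4 of 4 had cytoplasmic values below 0, with a median of -0.34 against 0.06 for all tested genes (43.9% of them below 0). In both sets 3 of the 4 were below 0 in cytoplasm, as were 24.1% of all tested genes. In polysomes 2 lay below 0 and 2 above, with a median of -0.005 against -0.001 for all tested genes. NAB1, a corepressor that binds EGR proteins, had a log2 fold change of -0.43 over both fractions (-0.43 and -0.42 in sets 1 and 2). ELK3, an ETS cofactor of serum response factor, had -0.34 (-0.36 and -0.32), its relative ELK4 0.11 and the coactivator MRTFB -0.01. None passed the test.

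Of 11 tested cytoskeletal target genes of serum response factor, 10 lay above 0 in cytoplasm (median 0.33), 6 of them in both sets. In polysomes 9 of 11 lay below 0 (median -0.24), 4 of them in both sets. The polysomal median was -0.47 in set 1 and 0.03 in set 2. Above 0 in cytoplasm in both sets were 29.3% of all tested genes, and below 0 in polysomes in both sets 27.4%. Of all tested genes, 43.9% were below 0 in cytoplasm and 50.3% in polysomes, with medians of 0.06 and -0.001. The median loading change of the cytoskeletal genes was -0.56, with -0.9995 in set 1 and -0.04 in set 2. The 3' minus 5' measure given above moved most in set 1, and its part in this value was not tested. FLNA, an actin crosslinker, had a loading change of -1.13 and -0.66 in the sets, and MYH9, a non-muscle myosin, -0.9995 and -0.39. TAGLN2 had -1.02 and 0.17, and FHL2 0.07 and 0.12. No gene of this list was called.

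Of 13 tested genes of the ERK cascade, 10 lay above 0 in cytoplasm (median 0.24). In polysomes 10 of 13 lay below 0 (median -0.25), with medians of -0.37 in set 1 and -0.08 in set 2. Among all tested genes, 43.9% were below 0 in cytoplasm and 50.3% in polysomes. In both sets, 7 of 13 lay above 0 in cytoplasm and 6 of 13 below 0 in polysomes. The shares of all tested genes that did so were 29.3% and 27.4%. Over both fractions the log2 fold change was 0.29 for the GTPase NRAS, 0.22 for the kinase MAP2K1, -0.26 for MAP2K2 and -0.55 for RPS6KA5, a kinase downstream of ERK. Delayed early and feedback genes of the pathway lay above 0 in both fractions, for 7 of 8 tested genes in each, with medians of 0.38 in cytoplasm and 0.41 in polysomes, beside 0.06 and -0.001 for all tested genes. ETV1, an ETS factor, had 0.94 over both fractions (1.72 and 0.16 in sets 1 and 2) and SPRED2, an inhibitor of the pathway, 0.85 (1.25 and 0.45). In set 2 ETV1 had intensities of 9.4 to 14.3, under the 19.9 of the limit for testing. In cytoplasm ETV1 had 2.32 and SPRED2 2.13 in set 1, against the control array that correlated least with its set, and 0.34 and 0.35 in set 2. PHLDA3 had 0.28 and PHLDA2 -0.46. Limma called 0 genes of either list, and 1 delayed early gene had an unadjusted p under 0.05 in polysomes.

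Factors of mRNA decay that act on immediate-early mRNAs had a median of 0.09 over both fractions, with 5 of 7 above 0, beside a median of 0.03 and 46.2% below 0 for all tested genes. CNOT1, the scaffold of the deadenylase complex, had 0.56 (1.04 and 0.07 in sets 1 and 2), ELAVL1 0.18, HNRNPD -0.11 and the deadenylase CNOT7 -0.15. Limma called 0 of 7.

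**Figure D5:**
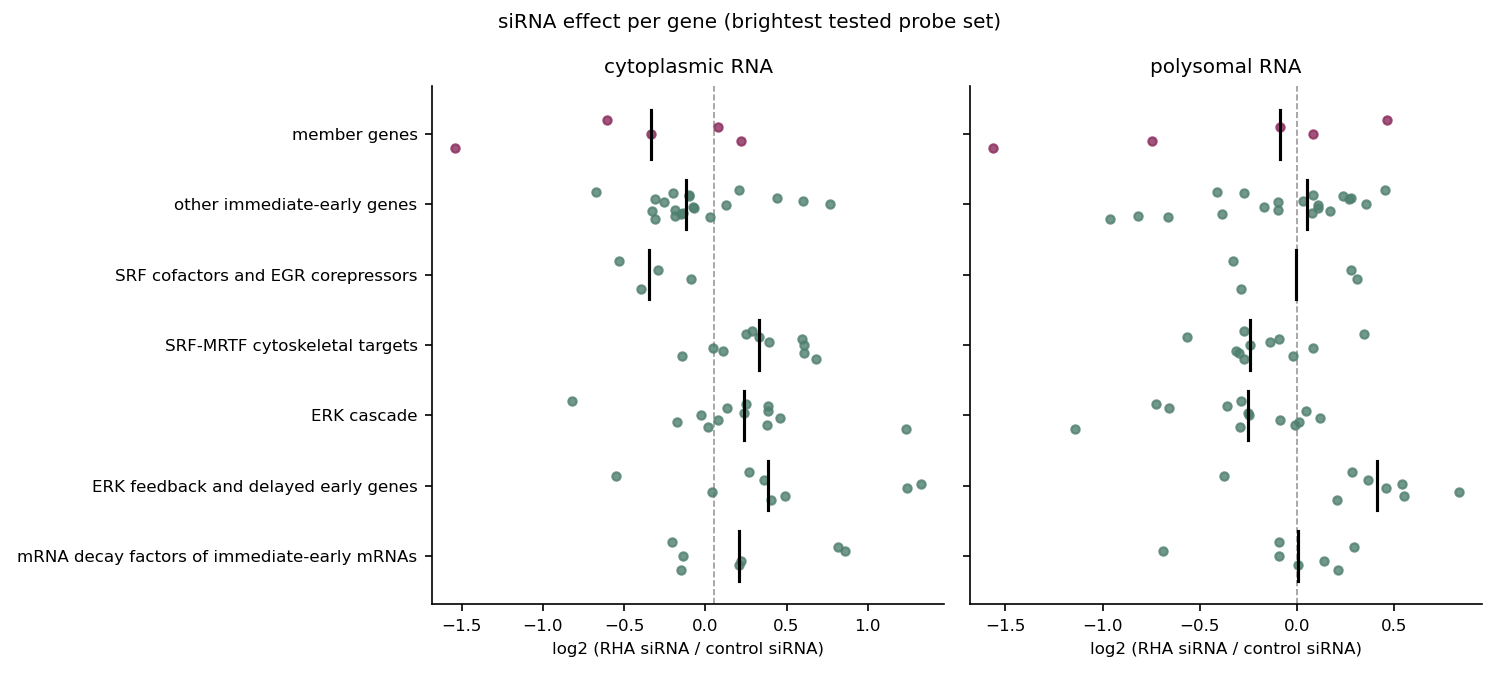
Log2 fold change under RHA siRNA (horizontal axis) per gene, as the brightest tested probe set, in cytoplasmic (left) and polysomal (right) RNA, for the member genes and 6 further lists; black bars are list medians and the dashed line is the median of all tested genes. EGR2 is the leftmost point in both panels, at -1.54 and -1.56.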

How the data were processed

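Per the labels, 25 ng of RNA per array was amplified and biotin-labelled. The authors deposited a linear intensity for every probe set, and no further scaling was applied. GCOS and RMA are named in the submitters' processing notes, without versions or what each did. Medians per array were 19.3 to 20.8. Gene names come from the platform annotation. After 99 control probe sets were left out, the brighter 50% by mean log2 value (26383 probe sets) were tested on the log2 scale with the limma package (version 3.58.1, R 4.3.3; moderated two-sided test, 4 group means over 8 arrays, Benjamini-Hochberg over all tested). Fits were checked on simulated data only for the median size of a planted shift and of its loading change, not for the calls. For EGR2 the siRNA contrasts carry no test. The brightest probe set of each member was described in full and the others by range or side by side. From each list the 2 highest and 2 lowest genes over both fractions were named, with JUNB and JUND named beyond that rule. For likeness to the first EGR2 probe set, the genes of the 5 highest correlations were named. Members and lists were chosen with earlier results of these data known. Whether replicates were separate cultures is not given in the labels, and the p-values may therefore reflect technical spread alone. The number of arrays limits the precision.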

Additional observations from a re-analysis of the deposited data

Results flagged for a closer look

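2 member probe sets had siRNA effects below 0 in cytoplasm and above 0 in polysomes in both sets. On PHLDA1 (MmugDNA.36067.1.S1_at) the polysomal minus cytoplasmic effect was 1.07, with polysomal effects of 0.81 and 0.11 and cytoplasmic effects of -0.55 and -0.67 in sets 1 and 2. On KLF6 (MmugDNA.26405.1.S1_s_at) it was 0.63, with 0.16 and 0.36 in polysomes and -0.28 and -0.45 in cytoplasm. The difference passed no test in limma, where the adjusted p of each was 1.00. Effects below 0 in cytoplasm and above 0 in polysomes in both sets were found in 4.15% of tested probe sets.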

How the results depend on the processing

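Alternatives were another filter, quantile normalization, an offset of 16 before the log, the replicate number as a fixed or random block, the mean over the probe sets of a gene, each set alone, and each array left out. With the replicate number as a block limma called 2 probe sets for the siRNA effect over both fractions, and 1 with it as a random block, against 0 without; with the block no probe set of IER2, KLF6, DUSP1 or PHLDA1 was called. Deviations from the group means correlated between the arrays of a set with r = 0.680 to 0.868. Each array also correlated more with its own set (median r 0.949 to 0.980) than with the other array of its group (r 0.826 to 0.861). Arrays of one number thus deviated together. The labels do not say what the number marks, so pairing of cultures is not shown. With the block, 2 of the 11 probe sets of IER2, KLF6, DUSP1 and PHLDA1 had an unadjusted p under 0.05 for the change in loading (1048 of all 26383), 1 for the siRNA effect in polysomes (1334 of 26383), 1 for polysome over cytoplasm under RHA siRNA (1177 of 26383), and 0 in the other 3 contrasts. The number of probe sets that differed between the sets was 21369 with all probe sets tested, where 52766 entered. The value of EGR2 on its first probe set over both fractions stayed below 0 in every alternative run, from -1.75 to -1.35 with an array left out. EGR2 was chosen for this fall, and all 4 RHA siRNA arrays lay below all 4 control arrays. Leaving an array out therefore could not turn the sign, and its staying below 0 is no support. The second EGR2 probe set had 0.36 over both fractions. Averaging the probe sets of a gene turned the sign for KLF6 (0.083 in cytoplasm, 0.056 over both fractions, -0.054 for loading, 0.15 for polysome over cytoplasm under control siRNA), for PHLDA1 (0.12 in cytoplasm, 0.24 over both, 0.058 for polysome over cytoplasm under control siRNA) and for DUSP1 (0.014 over both, -0.038 for polysome over cytoplasm under RHA siRNA). The offset gave DUSP1 0.000478 over both. With an array left out, signs turned for DUSP1 in all 6 contrasts: -0.84 to 1.00 in cytoplasm, -1.08 to 0.90 in polysomes, -0.50 to 0.49 over both, -1.16 to 0.82 for loading, and for polysome over cytoplasm -0.76 to 1.22 under RHA siRNA and -0.43 to 1.23 under control siRNA. Other ranges that crossed 0 were -0.18 to 0.62 for IER2 in cytoplasm, -0.18 to 0.031 for PHLDA1 over both, and for KLF6 -0.00384 to 0.17 in polysomes and -0.42 to 1.03e-05 for polysome over cytoplasm under control siRNA. The cause was not tested where no value shows it.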
